A study of Mus musculus with 6 samples.

Results

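The transcription factors that drive mesenchymal transition were examined in bulk RNA-Seq of NIH3T3 cells, fibroblasts from mouse embryos that grow as an immortalized line. The 10 genes were taken from a list (Snai1, Snai2, Zeb1, Zeb2, Twist1, Twist2, Prrx1, Prrx2, Tcf21 and Tbx2) out of 55401 genes in the count files. All 10 were present in the files, 9 had counts and passed the filter on low counts, and Tcf21 had none. The study asked what the oncogenic fusion protein TAZ-CAMTA1 (TC) does to transcription through TEAD factors, and what aurintricarboxylic acid (ATA), a disruptor of the TAZ-TEAD complex, does in TC-expressing cells. There were 2 libraries of cells with empty vector and DMSO (EV), 1 library of cells with TAZ-CAMTA1 and DMSO (TC) and 3 libraries of cells with TAZ-CAMTA1 and 10 μM ATA for 48 h (TC + ATA). All 6 come from the same parental line, TC was stably expressed from a vector whose promoter is not given in the sources used here, and no EV library with ATA was analysed, so the effect of ATA without TC cannot be read from these data. With 1 library of TC, the comparisons with it lack replicates on that side. The sources do not say whether libraries of a group came from separate cultures, and the p-values then measure only the spread between these libraries, which may be technical.

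Mesenchymal transition is the change by which epithelial cells give up their junctions and polarity and become motile. SNAIL and ZEB proteins are zinc finger repressors that bind E-boxes in the promoters of epithelial genes, and TWIST proteins are basic helix-loop-helix factors that act as dimers with E proteins. PRRX proteins are paired-related homeodomain factors of embryonic mesenchyme, TCF21 marks certain fibroblast lineages, and TBX2 is a T-box repressor. Fibroblasts are already mesenchymal, so in this line such factors are part of the resting state.

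The libraries held between 58471484 and 74413193 counts, and levels are given as CPM, reads per 1e6 counts after TMM scaling (a scaling for library composition). The EV libraries differed more from each other (a chi-square per degree of freedom of 46.2 over genes, where sampling noise alone gives 1) than the TC + ATA libraries did (4.85 to 5.41). The cells expressed most fibroblast markers. Of 11 fibroblast markers, 9 averaged at least 5 CPM, none was at 0 in every library, and their summed level was 13448 to 15024 CPM in EV, 17469 CPM in TC and 16554 to 17634 CPM in TC + ATA. Collagen and vimentin genes make up most of that sum. By gene, 5 of the 11 markers were called lower in TC versus EV (Col6a1, Pdgfra, Thy1, Dcn and Lum, log2 fold changes of −2.07 to −1.20) and 2 higher (edgeR), with a median of −1.20, and in TC + ATA versus EV 5 were called lower and 4 higher, with a median of −0.23. These comparisons called 28.0% and 36.6% of all genes tested. The summed level of 8 endothelial markers was 2.09 to 3.09 CPM in EV, 4.32 CPM in TC and 3.74 to 4.63 CPM in TC + ATA, and that of 9 epithelial markers was 1.38 to 2.14, 3.90 and 2.64 to 3.98 CPM, with no marker of either list averaging 5 CPM. For 7 macrophage markers the sums were 9.49 to 9.69, 12.0 and 13.4 to 17.9 CPM, for 6 skeletal muscle markers 199.9 to 284, 259 and 306 to 411 CPM, and for 5 adipocyte markers 1.61 to 2.05, 1.46 and 2.201 to 2.49 CPM. The part of these differences in the results below was not tested, and in bulk RNA fewer cells of a type and less RNA per cell cannot be told apart. Wwtr1, the mouse gene of TAZ, was at 104 to 110 CPM in EV, 139 CPM in TC and 129 to 131 CPM in TC + ATA, and Camta1 was at 15.4 to 18.9 CPM in EV, 19.2 CPM in TC and 18.4 to 18.8 CPM in TC + ATA. Reads of the introduced fusion and of the cell's own genes are not separated in these counts.

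In TC versus EV, the factors did not move as a group. Zeb2 and Twist1 rose, and Snai1, Snai2, Twist2, Prrx1 and Prrx2 fell by 1.87-fold to 2.80-fold. The change of Zeb1 and Tbx2 did not pass the test. Thus 2 of the 9 tested members were called higher and 5 lower at an adjusted p of at most 0.05 (edgeR), where 28.0% of the 18539 genes tested were called, 14.8% higher and 13.2% lower. None passed the study's further limit, an absolute log2 fold change over 2, which 2.36% of genes passed upward and 1.27% downward. The TC library lay below both EV libraries in 7 members and above both in 2, and it was outside the EV range for 78.9% of all genes (above for 38.9% and below for 40.0%). The median log2 fold change of the members was −0.93, beside −0.03 over all genes.

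Within each of 3 pairs of related genes the changes were unlike. Twist1 was called higher and Twist2 lower, Zeb2 was called higher while Zeb1 was not called, and Snai2 had a larger fold change than Snai1. Both Prrx genes fell to about the same degree.

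**Figure D1:**
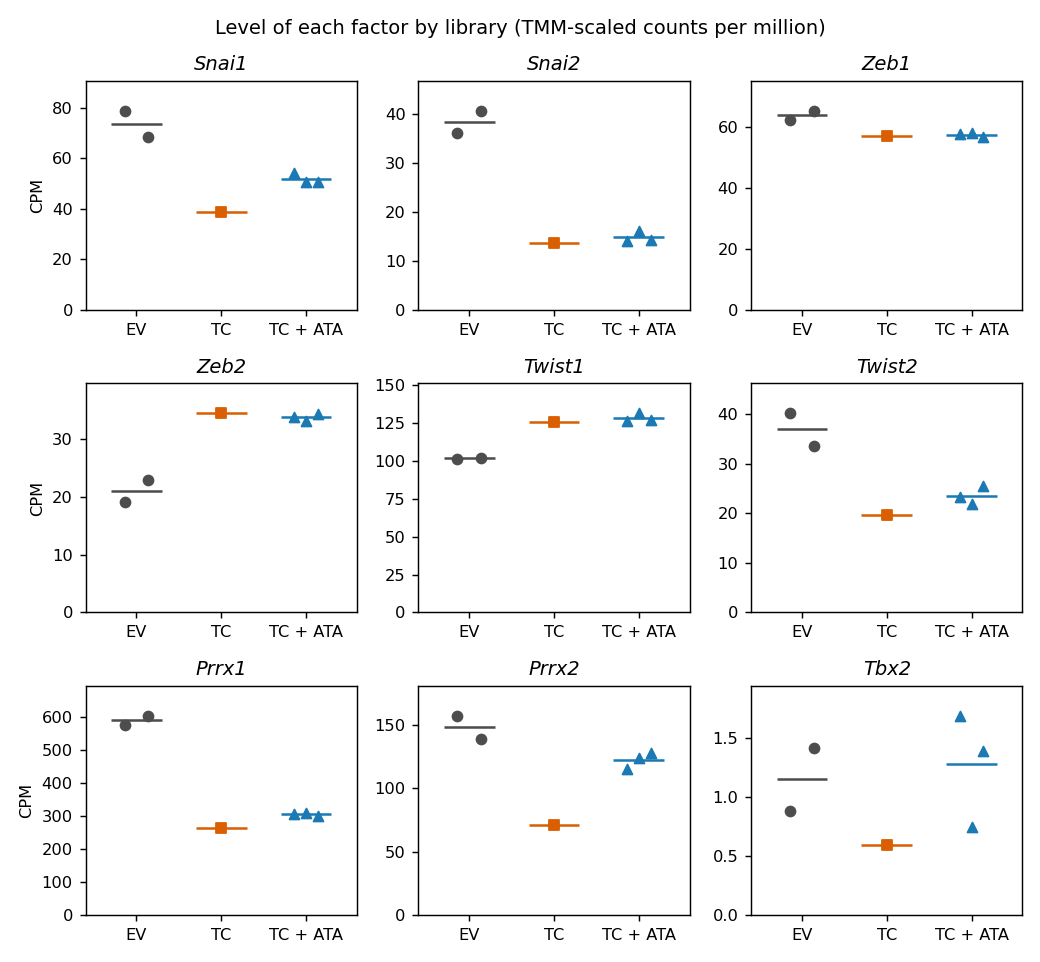
Level of each of the 9 detected factors (TMM-scaled CPM, linear axis from 0) in the 2 EV (circles), 1 TC (square) and 3 TC + ATA libraries (triangles), with a line at the group mean. Snai1, Snai2, Twist2, Prrx1 and Prrx2 lie lower in TC and TC + ATA than in EV, Zeb2 and Twist1 lie higher, and Prrx2 in TC + ATA (115 to 128 CPM) lies between TC (71.4 CPM) and EV (139 to 157 CPM).

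Snai1 encodes SNAIL, a repressor of E-cadherin, and lies on the plus strand of chromosome 2 from 167538195 to 167542814 (GRCm38). It was at 78.8 and 68.5 CPM in EV, 38.7 CPM in TC and 54.4, 50.8 and 50.8 CPM in TC + ATA. The groups did not overlap, with TC lowest and EV highest. The log2 fold change was −0.93 (SE 0.11, edgeR, adjusted p = 0.000232) in TC versus EV and −0.50 (SE 0.08, edgeR, adjusted p = 0.000787) in TC + ATA versus EV.

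Snai2 encodes SLUG, the SNAIL paralog active in neural crest and fibroblasts, and lies on chromosome 16 from 14705852 to 14709385. It was at 36.1 and 40.6 CPM in EV, 13.7 CPM in TC and 14.2, 16.0 and 14.3 CPM in TC + ATA. All 4 TC-expressing libraries lay far below both EV libraries and close to each other. This was the largest fold change among the 9 tested members, with a log2 fold change of −1.49 (SE 0.13, edgeR, adjusted p = 4.09e-05) in TC versus EV and −1.37 (SE 0.09, edgeR, adjusted p = 4.39e-06) in TC + ATA versus EV.

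Zeb1 and Zeb2 encode large zinc finger and homeodomain repressors. Zeb1 lies on chromosome 18 from 5591860 to 5775467 and was at 62.4 and 65.4 CPM in EV, 57.2 CPM in TC and 57.9, 58.1 and 56.7 CPM in TC + ATA. The TC-expressing libraries were below EV by a small margin, with log2 fold changes of −0.16 (95% interval −0.34 to 0.02, edgeR, adjusted p = 0.179) and −0.15 (interval −0.28 to −0.02, edgeR, adjusted p = 0.075), and neither was called. Without EV replicate 1, both were called lower (edgeR, adjusted p = 0.0174 and 0.00561), and TC + ATA versus EV was also called when scaled by library size alone (adjusted p = 0.0267). Zeb2 lies on the minus strand of chromosome 2 from 44983632 to 45117395 and was at 19.2 and 22.9 CPM in EV, 34.5 CPM in TC and 33.9, 33.1 and 34.4 CPM in TC + ATA. Every TC-expressing library was above both EV libraries, by a log2 fold change of 0.71 (SE 0.11, edgeR, adjusted p = 0.00149) in TC and 0.68 (SE 0.09, edgeR, adjusted p = 0.000309) in TC + ATA. The exons of Zeb2 share 653 bases with the antisense gene Zeb2os, which had 1 to 10 counts per library, and those of Zeb1 share 198 bases with Gm10125 (40 to 93 counts). The use of strand in counting is not stated, so reads from a gene and its antisense partner cannot be told apart.

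Twist1 and Twist2 encode closely related basic helix-loop-helix factors, the first known from cranial mesenchyme and the other (also called DERMO1) from dermis. Twist1, on chromosome 12 from 33957671 to 33959829, was at 101 and 102 CPM in EV, 126 CPM in TC and 126, 131 and 127 CPM in TC + ATA. The EV libraries nearly coincided and all TC-expressing libraries lay above them. The rise was small, with a log2 fold change of 0.31 (SE 0.08, edgeR, adjusted p = 0.0158) in TC and 0.33 (SE 0.06, edgeR, adjusted p = 0.00185) in TC + ATA. In TC versus EV this call was lost with scaling by library size alone (adjusted p = 0.106), with the EV and TC libraries fitted alone (0.24) and without TC + ATA replicate 2 (0.0551).

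Twist2, on chromosome 1 from 91801461 to 91848028, moved the other way. It was at 40.2 and 33.7 CPM in EV, 19.7 CPM in TC and 23.3, 21.8 and 25.5 CPM in TC + ATA. The groups did not overlap, and the log2 fold change was −0.91 (SE 0.14, edgeR, adjusted p = 0.00128) in TC and −0.65 (SE 0.10, edgeR, adjusted p = 0.000827) in TC + ATA versus EV. Of its 3174 exonic bases, 1477 are shared with the antisense gene Gm29100, which had 378 and 477 counts in EV, 204 in TC and 200 to 256 in TC + ATA, so the value of Twist2 is uncertain to that extent.

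Prrx1 and Prrx2 encode paired-related homeodomain factors that act together in limb and craniofacial mesenchyme, and Prrx1 had the highest counts of all members. Prrx1, on the minus strand of chromosome 1 from 163245119 to 163313710, was at 576 and 604 CPM in EV, 263 CPM in TC and 305, 310 and 299 CPM in TC + ATA. The log2 fold change was −1.17 (SE 0.09, edgeR, adjusted p = 2.09e-05) in TC and −0.95 (SE 0.06, edgeR, adjusted p = 4.98e-06) in TC + ATA versus EV, with no overlap between groups. Prrx2, on chromosome 2 from 30834972 to 30881251, was at 157 and 139 CPM in EV, 71.4 CPM in TC and 115, 124 and 128 CPM in TC + ATA. TC stood well below the other libraries, and the TC + ATA libraries came close to EV. Prrx2 had a log2 fold change of −1.06 (SE 0.11, edgeR, adjusted p = 0.00011) in TC and −0.28 (SE 0.08, edgeR, adjusted p = 0.0192) in TC + ATA versus EV, and the latter call was lost without TC + ATA replicate 1 (adjusted p = 0.0925) or 2 (0.0671).

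Tbx2 and Tcf21 were low or not detected. Tbx2, on chromosome 11 from 85832551 to 85841948, had 66 and 108 counts in EV, 41 in TC and 96, 53 and 97 in TC + ATA, or 0.882, 1.42, 0.591, 1.69, 0.748 and 1.39 CPM. The EV and TC + ATA libraries overlapped and TC was the lowest, with a log2 fold change in TC versus EV of −0.96 and an interval of −2.196 to 0.28 (edgeR, adjusted p = 0.236), so a change of the size seen in Prrx1 lies within the interval, as does no change. Its libraries varied widely within groups, with an SD of 32.9% of the mean in EV and 37.7% in TC + ATA. Tcf21, on chromosome 10 from 22817281 to 22820174, had 0 counts in each of the 6 libraries. A count of 0 allows up to 3 counts, or 0.0393 to 0.0528 CPM depending on the library, which covers counting error only.

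**Figure D2:**
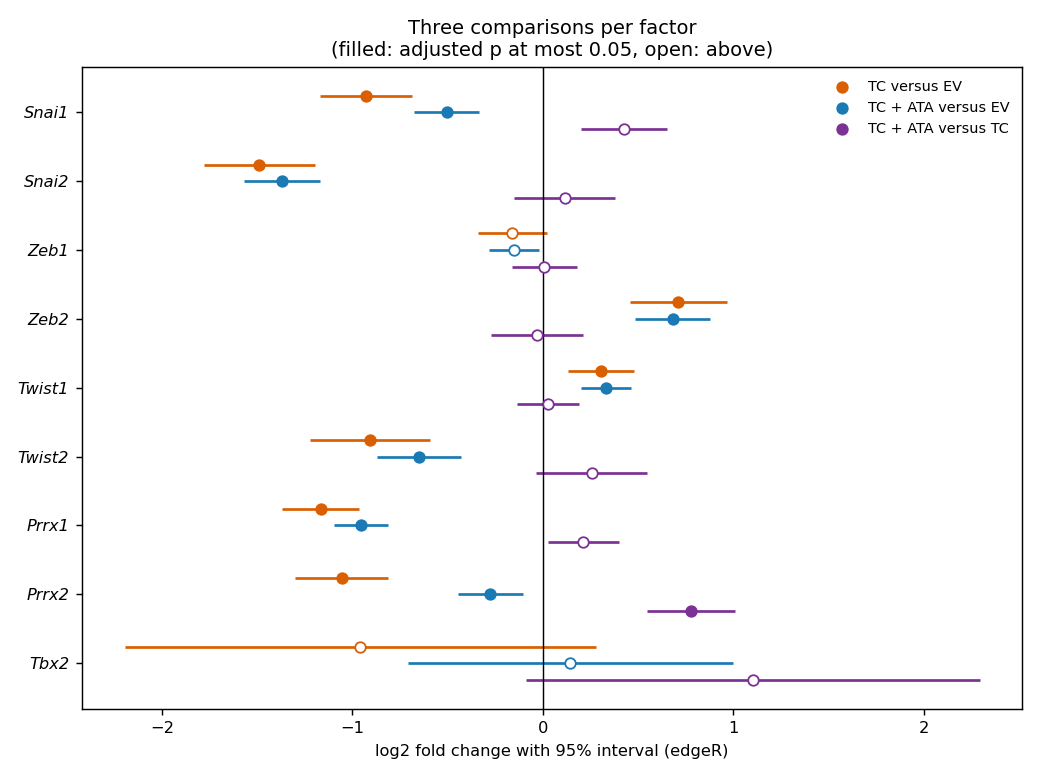
Log2 fold changes with 95% intervals (edgeR) of the 9 tested factors in TC versus EV (orange), TC + ATA versus EV (blue) and TC + ATA versus TC (purple). Filled points passed an adjusted p of 0.05. Of the purple points, that of Prrx2 (0.78) is filled, and the widest intervals are those of Tbx2.

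The sequences upstream of 4 called members are shown, those with a usable window. Of these, Snai1, Prrx1 and Twist2 fell and Twist1 rose in TC versus EV. Snai2 had no window, and those of Prrx2 and Zeb2 lay in or near annotated exons or did not match a transcript. The sequences shown are windows of up to 250 bases before the annotated start, from RefSeq (GRCm38.p6). They are written 5′ to 3′ on the strand of the gene, with motif matches in capitals. Snai1 covers chr2:167537945-167538194 (plus strand), Prrx1 chr1:163313711-163313900 (minus strand, 190 bases outside annotated exons), Twist2 chr1:91801211-91801460 (plus strand) and Twist1 chr12:33957421-33957670 (plus strand).
Snai1: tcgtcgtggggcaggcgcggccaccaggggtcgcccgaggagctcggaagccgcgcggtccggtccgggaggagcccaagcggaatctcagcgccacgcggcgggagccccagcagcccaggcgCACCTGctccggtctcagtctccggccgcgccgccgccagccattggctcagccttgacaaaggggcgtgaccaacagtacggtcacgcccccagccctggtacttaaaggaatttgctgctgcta
Prrx1: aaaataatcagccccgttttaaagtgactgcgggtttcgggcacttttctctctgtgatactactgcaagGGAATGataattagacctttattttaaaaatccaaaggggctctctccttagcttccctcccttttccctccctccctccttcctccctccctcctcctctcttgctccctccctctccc
Twist2: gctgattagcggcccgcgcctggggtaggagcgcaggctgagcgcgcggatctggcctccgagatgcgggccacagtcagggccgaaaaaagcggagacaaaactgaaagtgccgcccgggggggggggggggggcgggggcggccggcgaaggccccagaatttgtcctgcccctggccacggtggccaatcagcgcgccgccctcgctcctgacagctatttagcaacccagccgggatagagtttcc
Twist1: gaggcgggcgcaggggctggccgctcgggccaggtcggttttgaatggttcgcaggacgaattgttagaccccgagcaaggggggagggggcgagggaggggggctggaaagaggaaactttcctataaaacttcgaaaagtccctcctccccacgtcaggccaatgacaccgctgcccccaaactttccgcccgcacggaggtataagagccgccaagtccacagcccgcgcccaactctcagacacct
There were 4 motifs searched on both strands, the TEAD motif GGAATG, the E-box CAGGTG of SNAIL and ZEB proteins, any E-box CANNTG (which includes the former) and the AP-1 motif TGAGTCA. The Snai1 window holds CACCTG, the E-box read from the other strand, 126 bases before the start, and a window with this E-box is not rare (17.2% of 32851 windows, and 66.2% for any E-box). The Prrx1 window holds GGAATG 180 bases before the RefSeq start, and 12.6% of windows hold this motif on either strand. That start lies past the 190 bases shown, which end where the annotated exons of Prrx1 begin. The motif is therefore nearer to the gene start given above. The windows of Twist1 and Twist2 held none of the 4 motifs, which says only that these letters are absent there. In all, 7 of the 10 members were in the RefSeq table. Of these, Zeb2 had a window inside its annotated gene with CATTCC (the reverse of GGAATG) 157 bases before an internal start and AP-1 motifs 189 and 132 bases before it (4.46% of windows hold an AP-1 motif), and no match was found for Prrx2 or Tcf21. A match is a description of the letters and not of binding.

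Against EV, the calls of TC + ATA had the same make-up, with 2 members called higher (Zeb2, Twist1) and 5 lower (Snai1, Snai2, Twist2, Prrx1, Prrx2) of 9 tested, where 36.6% of genes were called (18.0% higher and 18.6% lower). The TC + ATA libraries did not overlap with EV in 8 members, 6 below and 2 above, and in 58.8% of all genes (28.7% above and 30.1% below). The median log2 fold change of the members was −0.28, beside −0.01 over all genes. This comparison shares the EV libraries with TC versus EV, so the values stand side by side and do not support each other. For Snai2 they were −1.37 and −1.49, for Zeb2 0.68 and 0.71, and for Prrx2 −0.28 and −1.06.

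The effect of ATA in TC-expressing cells is addressed by TC + ATA versus TC, in which 1 member rose. Prrx2 was 1.72-fold higher with ATA (log2 fold change 0.78, SE 0.10, interval 0.55 to 1.01, edgeR, adjusted p = 0.0137), and the 3 TC + ATA libraries were all above TC. No member was called lower (edgeR, 0 at an unadjusted p under 0.05 and 0 with DESeq2), and 8 were not called, where 0.426% of genes were called higher, 0.156% lower and 0.583% in all. The Prrx2 call rests on the spread of few libraries and was lost without TC + ATA replicate 2 (adjusted p = 0.104) or 3 (0.111). Its log2 fold change was 0.75 to 0.82 when any library of EV or TC + ATA was left out. The lone TC library stayed in each of these fits, so this range says nothing of how TC varies.

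Snai1 had a log2 fold change of 0.43 in TC + ATA versus TC (interval 0.20 to 0.65, edgeR, adjusted p = 0.139) and Prrx1 of 0.21 (interval 0.03 to 0.40, adjusted p = 0.433). Neither was called by edgeR with the filter and all libraries in the fit, although 3 of 3 TC + ATA libraries lay above TC for both. Without EV replicate 1 or 2, Snai1 was called (adjusted p = 0.0016 and 0.00128) and so was Prrx1 (0.00393 and 0.00299), as they were with only TC and TC + ATA in the fit (0.00136 and 0.00308). Snai1 was also called by DESeq2 (0.0249) and with no filter on low counts (0.0235). With only TC and TC + ATA in the fit, or with 1 EV library left, the spread comes from the TC + ATA libraries alone. In every fit the lone TC library is assumed to vary like the other groups.

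The remaining members gave narrow to wide intervals around no change with ATA. For Zeb1 the log2 fold change was 0.01 (interval −0.16 to 0.18), for Twist1 0.03 (−0.14 to 0.19), for Zeb2 −0.03 (−0.27 to 0.21), for Snai2 0.12 (−0.15 to 0.38), for Twist2 0.26 (−0.04 to 0.55) and for Tbx2 1.10 (−0.09 to 2.29). Thus at most a small change of Zeb1, Twist1 and Zeb2 lies within these intervals. That of Tbx2 holds no change, a slight fall and a rise of up to 2.29. The TC library was below each of the 3 TC + ATA libraries in 7 of 9 members and above them in 1, and groups were apart in this way for 63.2% of all genes (TC + ATA above in 30.5% and below in 32.7%). All 5 members that fell in TC had a higher mean in TC + ATA than in TC, and since both comparisons contain the TC library in opposite roles, this is given as a description.

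The ratio of counts between the genes of a pair does not depend on how a library is scaled. Snai1 had 2.18 and 1.69 times the counts of Snai2 in EV, 2.83 times in TC and 3.84, 3.17 and 3.56 times in TC + ATA. The balance thus lay further toward Snai1 in every TC-expressing library. Zeb1 had 3.25 and 2.85 times the counts of Zeb2 in EV, 1.66 times in TC and 1.71, 1.75 and 1.65 times in TC + ATA. Twist1 had 2.52 and 3.02 times the counts of Twist2 in EV, 6.38 times in TC and 5.40, 6.03 and 4.97 times in TC + ATA, so Twist1 dominated this pair more in the presence of TC. For Prrx1 and Prrx2, the ratio was 3.66 and 4.33 in EV, 3.68 in TC and 2.65, 2.50 and 2.33 in TC + ATA. This pair stood apart from the other 3, since its ratio in TC lay inside the range of EV and was lower in each TC + ATA library.

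On the log2 scale, the mean ratio in TC + ATA minus that in EV was 0.87 for Snai1 to Snai2, −0.84 for Zeb1 to Zeb2, 0.98 for Twist1 to Twist2 and −0.68 for Prrx1 to Prrx2. The exact permutation test (two-sided, 3 against 2 libraries) gave p = 0.2 for each of the 4 pairs, which is the smallest p this design allows, and 0.2 after Benjamini-Hochberg adjustment over the 4. The ratios in EV and TC + ATA libraries did not overlap in any pair, which adds nothing to this p. The share among other gene pairs was not computed. For single genes, the libraries of these groups did not overlap in 58.8% of all genes tested. The annotated transcripts of the genes of a pair share no stretch of 50 bases in any of the 4 pairs.

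**Figure D3:**
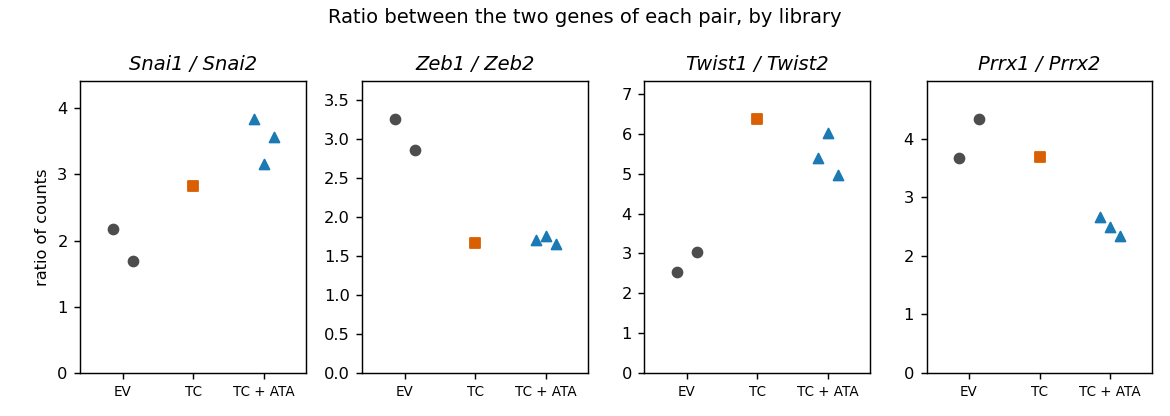
Ratio of counts between the genes of 4 related pairs in the 2 EV (circles), 1 TC (square) and 3 TC + ATA libraries (triangles), on linear axes from 0. The ratio of Twist1 to Twist2 rises from 2.52 to 3.02 in EV to 4.97 to 6.38 with TC, that of Zeb1 to Zeb2 falls, and that of Prrx1 to Prrx2 is lower in TC + ATA but not in TC.

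Levels between genes were compared as CPM per kilobase of annotated exon. In EV, Prrx2 ranked highest at 75.6 ± 6.50 (SD, n = 2), followed by Twist1 at 62.5 ± 0.209, Prrx1 at 53.3 ± 1.75, Snai1 at 45.4 ± 4.48, Snai2 at 19.0 ± 1.59, Twist2 at 11.6 ± 1.45, Zeb1 at 6.23 ± 0.205, Zeb2 at 1.06 ± 0.132 and Tbx2 at 0.317 ± 0.104 CPM per kilobase. The ranges of neighbours in this order did not overlap, although each rests on 2 libraries. In TC (1 library), Twist1 ranked first at 77.3, before Prrx2 at 36.4, Snai1 at 23.9 and Prrx1 at 23.7, and Snai2 (6.77) and Twist2 (6.21) came to lie close together. In TC + ATA, Twist1 was at 78.7 ± 1.77 (SD, n = 3), Prrx2 at 62.5 ± 3.48, Snai1 at 32.1 ± 1.28 and Prrx1 at 27.5 ± 0.507 CPM per kilobase, and Twist2 (7.42 ± 0.590) and Snai2 (7.33 ± 0.522) overlapped. The length is that of all annotated exons together, 19942 bases for Zeb2 and 11066 for Prrx1, so a gene that uses a shorter transcript has a higher level than given here.

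**Figure D4:**
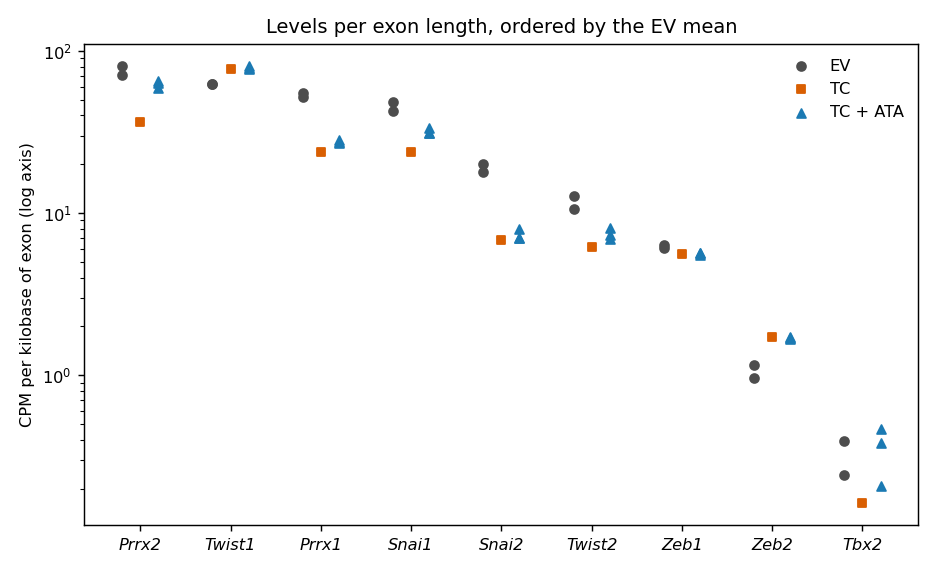
CPM per kilobase of annotated exon (log axis) of the 9 detected factors, ordered by their EV mean, with one point per library (EV circles, TC square, TC + ATA triangles). Prrx2 leads in EV at 75.6 and Twist1 leads in TC at 77.3 and in TC + ATA at 78.7.

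The other members of these families were mostly not expressed. Of 20 listed relatives (further SNAIL, TWIST, PRRX and T-box genes), 8 were tested. In TC versus EV 1 was called higher and 4 lower, beside 14.8% and 13.2% of all genes. The median log2 fold change was −0.03, beside −0.03 over all genes. Tbx3, the close relative of Tbx2, rose from 8.45 and 10.5 CPM in EV to 21.7 CPM in TC (log2 fold change 1.19, edgeR, adjusted p = 0.00028) and was at 18.3, 16.3 and 17.0 CPM in TC + ATA. Shox2, a homeobox gene of limb and heart, fell by 0.79 on the log2 scale, Tbx4 by 0.69 and Tbx15 by 0.40 (edgeR, adjusted p = 0.00033, 0.0107 and 0.00751). Against EV, TC + ATA likewise had 1 called higher and 4 lower, beside 18.0% and 18.6% of all genes. The median was −0.29, beside −0.01 over all genes. The number called was 3 without TC + ATA replicate 3. Against TC none of the 8 was called (edgeR, 2 at an unadjusted p under 0.05 and 0 with DESeq2), with 2 calls without EV replicate 1 and 1 without EV replicate 2.

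Genes of the E proteins, the dimer partners of TWIST, and of the ID proteins, which compete for them, mostly fell. Of 7 genes, 6 were called lower and none higher in TC versus EV (13.2% and 14.8% over all genes). The median log2 fold change was −0.55, beside −0.03 over all genes. The E proteins Tcf3, Tcf4 and Tcf12 were among the 6 called lower. The others were Id2 (log2 fold change −1.51, edgeR, adjusted p = 3.06e-05), Id4 (−1.44, adjusted p = 4.26e-05) and Id1 (−0.66, adjusted p = 0.00312), which encode inhibitors that bind E proteins but not DNA. Id3 was at 111 and 99.4 CPM in EV and 101 CPM in TC.

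With ATA the ID genes moved up. Relative to TC, 4 of the 7 partners were called higher in TC + ATA and none lower (0.426% and 0.156% over all genes), with a median of 0.85. These were Id1 (log2 fold change 1.11, edgeR, adjusted p = 0.00538), Id2 (0.92, adjusted p = 0.0119), Id3 (0.85, adjusted p = 0.00678) and Id4 (1.14, adjusted p = 0.00547), and the E proteins were not called. Without TC + ATA replicate 3, none of the 4 was called (adjusted p = 0.0585 for Id1, Id2 and Id4 and 0.0776 for Id3), and Id2 was also not called without replicate 2 (0.0663), with log2 fold changes of 0.84 to 1.09 in these fits. Against EV, TC + ATA had 2 partners called higher, Id1 and Id3, and 5 lower, beside 18.0% and 18.6% of all genes.

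Of 13 corepressors that SNAIL and ZEB proteins recruit, 3 rose and 2 fell in TC versus EV, where 28.0% of all genes were called. Those that rose most were the LIM proteins Wtip, from 55.1 and 54.9 CPM in EV to 208 CPM in TC (log2 fold change 1.92, edgeR, adjusted p = 9.04e-07), and Ajuba, from 71.1 and 72.1 to 231 CPM (1.69, adjusted p = 1.09e-06). Both stayed high in TC + ATA, at 195 to 211 and 213 to 220 CPM. The histone methyltransferase gene Suv39h1 rose by 0.35 on the log2 scale, and Ctbp1 (−0.33) and Hdac2 (−0.28) fell (edgeR, adjusted p = 0.01, 0.0246 and 0.0289). Ctbp1 (adjusted p = 0.0692, 0.0896 and 0.0577) and Hdac2 (0.0851, 0.1 and 0.0784) were not called without TC + ATA replicate 1, 2 or 3, and Suv39h1 was not called with library size alone (0.0697) or only the groups compared (0.137). The list's median was −0.01, and its number of calls ran from 3 to 10 when 1 library was left out, with 10 when EV replicate 1 was out and 3 when any of the TC + ATA replicates was out. Of the same 13, 2 rose and 4 fell in TC + ATA versus EV, where 36.6% of all genes were called. None was called in TC + ATA versus TC (edgeR, 1 at an unadjusted p under 0.05 and 0 with DESeq2).

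Among 11 tested genes for kinases and ubiquitin ligases that act on these proteins, 2 rose and 1 fell in TC versus EV (median −0.04). The share called over all genes was 28.0%. Pak1, a kinase that phosphorylates SNAIL, rose by a log2 fold change of 0.62 (edgeR, adjusted p = 0.000688), Mdm2 rose by 0.39 (adjusted p = 0.0324) and Btrc, the F-box gene of the ligase that marks SNAIL for degradation, fell by 0.34 (adjusted p = 0.0253). The calls for Mdm2 and Btrc were lost when any TC + ATA library was left out (adjusted p = 0.0644, 0.0703 and 0.0656 for Mdm2 and 0.0585, 0.0656 and 0.0554 for Btrc, without replicates 1, 2 and 3). The list had 5 calls without EV replicate 1 or 2 and 1 call without any 1 of the TC + ATA replicates. In TC + ATA versus EV, where TC and ATA differ together, 2 rose and 2 fell, and 36.6% of all genes were called. This count of 4 became 2 without TC + ATA replicate 1, 2 or 3. None was called against TC (edgeR, 2 at an unadjusted p under 0.05 and 0 with DESeq2), and 2 were without EV replicate 1 or 2.

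Signals known to raise these factors changed in both directions. Of 18 tested genes, 5 rose and 8 fell in TC versus EV (median −0.15), and 4 rose and 8 fell in TC + ATA versus EV (median −0.35). Over all genes, 28.0% and 36.6% were called in these comparisons. The chromatin factor gene Hmga2 rose from 389 and 402 CPM in EV to 752 CPM in TC (log2 fold change 0.93, edgeR, adjusted p = 8.09e-05), and the TGF-β ligand Tgfb2 (0.50) and receptor Tgfbr2 (0.41) rose to a lesser degree (edgeR, adjusted p = 0.0218 and 0.00661). With only the groups compared neither was called (adjusted p = 0.069 and 0.0774), nor was Tgfb2 with scaling by library size alone (0.0976). Hgf, which encodes the scatter factor, fell from 18.5 and 22.0 CPM in EV to 3.30 CPM in TC (log2 fold change −2.62, adjusted p = 7.33e-06), past the fold limit of the study. Notch1 and Egfr both fell by 1.10 on the log2 scale (edgeR, adjusted p = 0.00149 and 0.000128). None of the 18 was called in TC + ATA versus TC (edgeR, 5 at an unadjusted p under 0.05 and 2 with DESeq2), and 4 and 5 were without EV replicates 1 and 2. Hmga2 was at 579, 541 and 534 CPM in TC + ATA.

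Epithelial genes, the classical repression targets, remained close to 0. Of 23, 11 were tested, and in TC versus EV 3 rose and none fell (median 1.83). Over all genes, 14.8% were called higher and 13.2% lower. Cdh1, the gene of E-cadherin, was at 0 and 0.05 CPM in EV, 0.13 CPM in TC and at most 0.24 CPM in TC + ATA (edgeR, adjusted p = 0.246 in TC versus EV), so the median describes low counts. The exceptions were the cingulin gene Cgn, which rose from 0.60 and 0.79 CPM in EV to 66.8 CPM in TC (log2 fold change 6.58, adjusted p = 4.65e-08), and the plakophilin gene Pkp2, from 10.4 and 10.1 to 33.1 CPM (1.69, adjusted p = 4.55e-06). Crb3 had no count in EV and was at 0.24 CPM in TC, at least 6.11-fold higher than 3 counts in an EV library would give, and this name was added after its values were seen. In TC + ATA versus EV, 3 rose and none fell, where 18.0% of all genes were called higher and 18.6% lower. None was called in TC + ATA versus TC (edgeR, 0 at an unadjusted p under 0.05 and 0 with DESeq2). Cgn was at 58.3, 53.8 and 59.8 CPM in TC + ATA. Against EV, 6 were called in TC and 6 in TC + ATA without EV replicate 1.

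Mesenchymal genes split. Of 23 tested, 8 rose and 5 fell in TC versus EV (median 0.25). In TC + ATA versus EV, 15 rose and 5 fell (median 0.42). This count of 20 became 12 without TC + ATA replicate 1 and 13 without replicate 2. Over all genes, 14.8% were called higher and 13.2% lower in TC versus EV, with a median of −0.03. The shares were 18.0% and 18.6% in TC + ATA versus EV, with a median of −0.01. The matricellular gene Sparc (log2 fold change 1.21, edgeR, adjusted p = 4.87e-05) and the hyaluronan receptor Cd44 (1.17, adjusted p = 1.27e-05) rose. Tenascin C (Tnc, −2.19, edgeR, adjusted p = 2.01e-06), the fibroblast receptor gene Pdgfra (−1.20, adjusted p = 1.31e-05) and the crosslinking enzyme gene Lox (−0.90, adjusted p = 0.000249) fell. Of this list, Acta2, which encodes smooth muscle actin, was called higher in TC + ATA than in TC (620 CPM in TC and 1242, 1230 and 1181 CPM in TC + ATA, log2 fold change 0.97, adjusted p = 0.0303), and this call was lost without TC + ATA replicate 1 (0.153), 2 (0.172) or 3 (0.178). The list then had no call, against 14 and 15 calls without EV replicates 1 and 2.

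**Figure D5:**
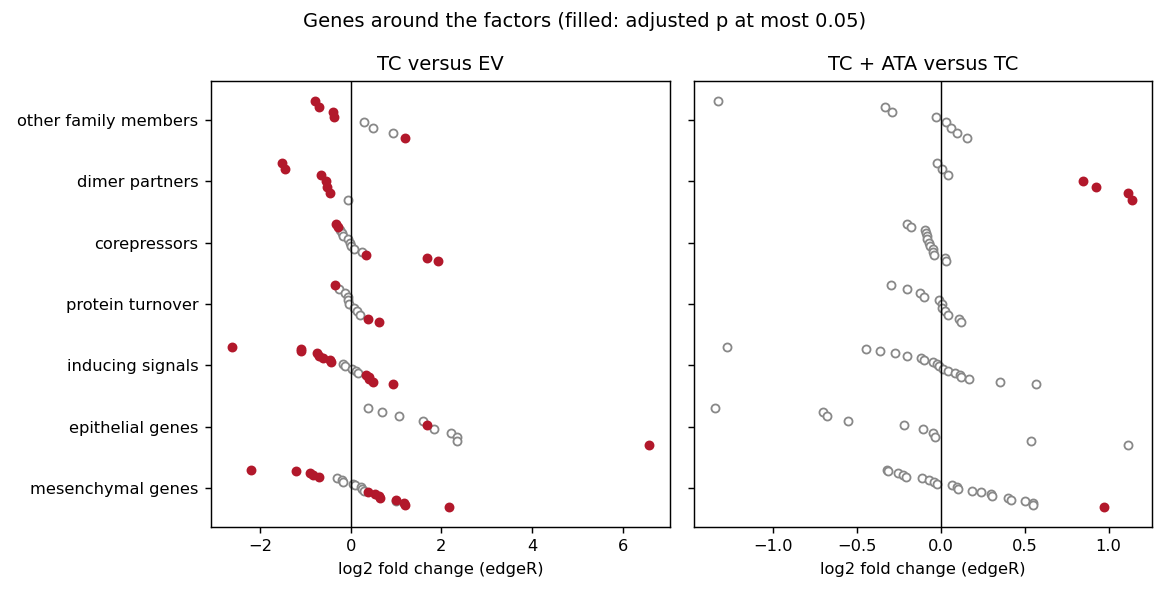
Log2 fold changes (edgeR) of the tested genes of 7 lists around the factors in TC versus EV (left) and TC + ATA versus TC (right), with filled points for an adjusted p of at most 0.05. Crb3 and Mmp3, which had no count in EV, are left out. The 4 filled points of the dimer partners on the right are Id1, Id2, Id3 and Id4, and the filled point of the mesenchymal genes is Acta2.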

How the data were processed

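RNA was measured in 6 libraries of NIH3T3 cells. The authors selected poly(A) RNA, sequenced paired ends, aligned to GRCm38.p6 (mm10) with HISAT2 (2.2.1 per the submitters' processing notes) and assigned reads to genes with featureCounts. Whole-number counts per gene were deposited, with no normalization. The annotation release and strand setting are not given in the sources used here. Reads that match several genes were handled at that step, so related genes may have lost reads.

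Symbols, positions and exon lengths were from GENCODE M21, which holds 55141 of the 55401 identifiers. Groups and replicate numbers came from the labels. Tests used edgeR 4.0.16 (R 4.3.3, limma 3.58.1) with TMM, filterByExpr, the quasi-likelihood test, all 6 libraries in one fit (3 residual degrees of freedom) and Benjamini-Hochberg adjustment over the 18539 genes tested. Standard errors came from the F statistic and intervals are at 95%. CPM are the deposited counts scaled to 1e6 per library after TMM. Permutation tests used scipy, and DESeq2 1.42.0 was an alternative. At 58471484 to 74413193 counts per library, the number of libraries limits precision more than counting error.

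The members and lists were chosen with earlier results of these data known. Named genes were all members, from each list up to 3 that rose and 3 that fell most in TC versus EV (called, at least 5 CPM on average, TC outside the EV range), and any list gene called in TC + ATA versus TC. A gene that this rule names is not reported here. Other names (Tcf3, Tcf4, Tcf12, Cdh1, Crb3 and fibroblast markers) were chosen after their values were seen, and overlapping genes are named beside their member. No 2 libraries agreed within sampling noise. In data simulated for TC versus EV, 52 of 54 genes over 5 CPM changed 2-fold were called, and 8 of 17676 unchanged genes. All simulated libraries had the same spread at a given level, and few genes were changed. The real EV libraries differed more from each other than the TC + ATA libraries did, so these rates may not carry over. Alternatives were other scalings, filters, DESeq2, only the groups compared, a replicate block and leaving out each EV or TC + ATA library.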

Additional observations from a re-analysis of the deposited data

How the results depend on the processing

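The 147 results were recomputed under 13 alternatives, and no value that was called changed its direction. Of 1560 log2 fold changes recomputed, 8 changed sign, none of them called, and 2 of these were of Tbx2 in TC + ATA versus EV (0.14, with −0.17 without EV replicate 1 and −0.10 without TC + ATA replicate 1). In TC versus EV, the calls of Snai1, Snai2, Zeb2, Twist2, Prrx1 and Prrx2 were made in 13 of 13 alternatives. All of these contain the same lone TC library, so they do not test how TC varies. The number of members called higher in TC versus EV fell from 2 to 1 with library size alone, with only the groups compared and with the replicate block, through the loss of Twist1, and was 1 to 2 when 1 library was left out. With ATA relative to TC, the number was 2 with DESeq2 and with no filter, 3 with only the groups compared, 0 with the replicate block and 0 to 3 when 1 library was left out. Fits without an EV replicate assume that the lone EV library varies like the others. The cause of these moves was not tested.

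Scaling by library size alone moved the median log2 fold change of all genes in TC versus EV from −0.03 to −0.13, and the calls from 2735 higher and 2456 lower to 2072 and 3159. For TC + ATA versus EV this gave 2711 and 4384 in place of 3340 and 3449. Relative to TC, 79 higher and 29 lower calls in TC + ATA became 795 and 633 with only the groups compared, 236 and 85 with DESeq2, 242 and 108 with no filter and 32 and 8 with the replicate block. Without an EV replicate it was 707 to 808 higher, and without a TC + ATA replicate 7 to 28.

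The replicate numbers that EV and TC + ATA share do not pair the libraries (correlations of deviations −0.0296 and −0.148). With the replicate block, TC versus EV had 1717 higher and 1467 lower calls and TC + ATA versus EV 2450 and 2195. Twist1 was not called in TC versus EV (adjusted p = 0.128), nor Prrx2 in TC + ATA versus EV (0.0656) or TC + ATA versus TC (0.112). Of the list genes with values in the report, the block also lost Tbx15 (0.0899), Suv39h1 (0.123), Ctbp1 (0.179), Hdac2 (0.195), Btrc (0.0994), Tgfb2 (0.0617) and Tgfbr2 (0.0668) in TC versus EV, and Id2 (0.06) and Acta2 (0.0719) in TC + ATA versus TC. With only the groups compared, Tbx15 (0.11), Ctbp1 (0.369), Hdac2 (0.375), Mdm2 (0.109) and Btrc (0.175) were not called in TC versus EV, and with library size alone Mdm2 was not (0.191).

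Of the lists in TC versus EV, only the groups compared gave 3 calls in place of 5 for other family members, 2 in place of 5 for corepressors, 1 in place of 3 for protein turnover and 7 in place of 13 for inducing signals, and the block gave 3 for other family members and 2 for corepressors. In TC + ATA versus EV the block gave 3 in place of 5 for other family members, 2 in place of 4 for protein turnover (also 2 with DESeq2) and 13 in place of 20 for mesenchymal genes. For TC + ATA versus TC, mesenchymal genes had 1 call, against 3 with library size alone, 6 with DESeq2, 5 with no filter, 2 with at least 1 CPM in 2 libraries, 15 with only the groups compared and 0 with the block. Inducing signals had 0, against 2 with DESeq2, 2 with no filter and 4 with only the groups compared, and the latter gave 2 in place of 0 for other family members and for protein turnover.

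When 1 library was left out, the number of calls in TC versus EV was 4 to 5 for other family members, 3 to 10 for corepressors, 1 to 5 for protein turnover, 12 to 14 for inducing signals, 3 to 6 for epithelial genes and 12 to 18 for mesenchymal genes. In TC + ATA versus EV it was 3 to 6 for other family members, 2 to 7 for protein turnover, 3 to 6 for epithelial genes and 12 to 20 for mesenchymal genes. Relative to TC it was 0 to 15 for mesenchymal genes, 0 to 5 for inducing signals, 0 to 2 for other family members and for protein turnover, 0 to 1 for corepressors and 0 to 4 for dimer partners. Most epithelial genes had few or no counts, which limits what their calls can show, and TC has 1 library.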
